A study of Mus musculus with 10 samples.

Results

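The genes described here handle arsenic and methyl groups. They are As3mt, Gsto1, Mat2a, Ahcy, Mtr, Bhmt, Gnmt, Cbs and Shmt1. These are 9 of the 21853 protein-coding genes of the GENCODE M21 annotation used here and are taken as a named list. For each gene, the CpG cytosines from 2 kb upstream of its start to its end were taken, and those within 1 kb of a protein-coding transcript start (the promoter) were kept apart from the rest (the body). In all, 460 of 1348062 CpG cytosines on chromosomes 1 to 19, X and Y belonged to the 9 genes, 355 in promoters and 105 in bodies. Promoter CpGs were present for 7 of the 9 genes and body CpGs for 8. As3mt and Bhmt had 0 CpGs in the promoter and Mat2a had 0 in the body.

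DNA methylation was measured by reduced representation bisulfite sequencing (RRBS), which reads CpG-rich fragments released by a restriction enzyme and distinguishes methylated cytosines, still read as C, from unmethylated ones, read as T. The cells were a fraction of the late-fetal mouse testis recovered by magnetic separation with an antibody against Thy1. The study describes it as predominantly enriched for prospermatogonia, the germ cells of that stage. The 5 control pools came from F1 embryos of C3H/HeN dams on plain tap water, and the 5 arsenic pools from F1 embryos of dams given sodium arsenite in their water during gestation. Testes of many embryos were combined in each pool, so the pool is the replicate, and a difference between embryos cannot be told apart from a difference between pools. The question was whether the DNA methylation level of these genes differed between the arsenic and the control group.

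Inorganic arsenite is methylated by As3mt with S-adenosylmethionine as the methyl donor, and Gsto1 can reduce methylated arsenic species with glutathione. S-adenosylmethionine is also the donor for DNA methylation. It is made from methionine by Mat2a, leaves S-adenosylhomocysteine that Ahcy hydrolyses to homocysteine, and is consumed on glycine by Gnmt. Homocysteine returns to methionine through Mtr, which takes the methyl group from folate, or through Bhmt, which takes it from betaine, or it leaves the cycle through Cbs into cysteine synthesis. Shmt1 passes a carbon unit from serine to the cytosolic folate pool.

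The stretches on which the results turn are shown in GRCm38 (mm10) letters from 5′ to 3′ on the strand of the gene. Capitals mark each CpG read in the table. The Gnmt stretch runs over the measured CpGs of the first coding exon with a few bases on either side, and is not the whole exon. Most of the CpGs with a small q-value lay there. The Mtr stretch holds the 3 body CpGs of that gene, all in bases that the reference marks as repeats. The 2 Cbs stretches are a coding exon with a CpG at 0 among methylated neighbours, and an intron just downstream of the start, where 7 of 10 cytosines lay in bases marked as repeats. The Shmt1 stretch is a partly methylated exon boundary.
Gnmt first coding exon, chr17:46728957-46729101: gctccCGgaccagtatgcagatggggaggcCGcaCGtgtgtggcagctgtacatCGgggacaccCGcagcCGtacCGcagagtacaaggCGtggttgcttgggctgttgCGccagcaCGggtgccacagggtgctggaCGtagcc
Mtr intron, chr13:12220670-12220778: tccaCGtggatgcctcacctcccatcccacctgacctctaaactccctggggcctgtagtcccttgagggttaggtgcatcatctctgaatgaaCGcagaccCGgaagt
Cbs coding exon and intron, chr17:31617164-31617310: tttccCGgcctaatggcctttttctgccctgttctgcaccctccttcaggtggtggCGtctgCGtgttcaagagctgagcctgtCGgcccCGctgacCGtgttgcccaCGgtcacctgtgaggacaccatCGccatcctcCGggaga
Cbs intron, chr17:31636108-31636287: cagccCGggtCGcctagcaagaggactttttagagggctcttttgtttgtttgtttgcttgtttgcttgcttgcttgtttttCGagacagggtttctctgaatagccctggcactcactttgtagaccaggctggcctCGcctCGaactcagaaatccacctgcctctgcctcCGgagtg
Shmt1 coding exon and intron, chr11:60804372-60804434: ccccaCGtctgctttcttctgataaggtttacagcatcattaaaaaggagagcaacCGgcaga

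As3mt and Bhmt were without promoter CpGs in the table. The 250 bases just upstream of their starts are shown next, with capitals marking every CpG of the reference. Each holds 4 CpGs and 0 copies of CCGG, the recognition sequence of MspI, the enzyme usual in RRBS.
As3mt upstream, chr19:46707208-46707457: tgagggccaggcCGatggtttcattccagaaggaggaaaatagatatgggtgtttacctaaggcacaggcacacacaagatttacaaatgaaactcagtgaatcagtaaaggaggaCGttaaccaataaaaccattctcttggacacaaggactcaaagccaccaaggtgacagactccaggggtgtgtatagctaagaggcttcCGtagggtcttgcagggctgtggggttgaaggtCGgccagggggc
Bhmt upstream, chr13:93637962-93638211: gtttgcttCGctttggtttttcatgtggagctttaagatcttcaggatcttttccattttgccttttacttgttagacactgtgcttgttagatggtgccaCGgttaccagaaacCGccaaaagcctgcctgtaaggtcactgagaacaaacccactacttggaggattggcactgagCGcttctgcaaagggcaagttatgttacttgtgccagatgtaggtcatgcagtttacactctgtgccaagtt
Over the whole window of 1 kb either side of the 5′-most start, As3mt held 3 copies of CCGG and Bhmt 5, both strands being covered since the motif is its own reverse complement. The other 7 genes held 5 to 13, and the median over the 21853 genes was 6. At least 1 copy was present in 86.3% of all windows. The counts are a description of letters and say nothing of how a promoter outside the table is methylated.

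Across the pools, 44207245 to 66570870 CpG calls were read, and median coverage was 25 to 40 reads per CpG, or 24 to 53 over the CpGs of the 9 genes. A level of 15 methylated among 30 reads has a 95% Wilson interval of 33.2 to 66.8%, and 0 of 30 reads allows a level of up to 11.4%. These intervals cover counting error only. Arsenic pool 1 stood apart with the lowest mean level over all CpGs, 42.1%, while the other pools lay between 45.2 and 47.3%. The germ cell label was checked by 6 germline gene promoters, whose mean level was 48.8 to 55.7% in the control pools and 40.4 to 62.3% in the arsenic pools, and by 6 maternally methylated imprinted promoters, at 30.6 to 41.8% and 27.2 to 52.2%. In both lists arsenic pool 1 was the lowest of the 10 pools and arsenic pool 5 the highest. Germline gene promoters are known to lose methylation in fetal germ cells, and maternally methylated imprinted promoters are known as unmethylated in fetal male germ cells, while the levels here were not near 0. The part of other testis cells in the values of the 9 genes was not tested.

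Promoters of the 9 genes were mostly unmethylated and their bodies mostly methylated, in both groups. Over the 7 promoters the median level was 1.28%, against 1.86% over 14214 promoters of all genes. Over the 8 bodies it was 82.7%, against 70.5% over 15050 bodies. No promoter and no body of the 9 genes differed between the groups by limma on the log ratio of the level (adjusted p over all promoters or all bodies). The number called was 0 of 7 promoters, where 0% of all promoters passed, and 0 of 8 bodies, where 0% of all bodies passed. At an unadjusted limma p under 0.05, 0 of the 7 promoters and 0 of the 8 bodies passed in the main fit, where 6.02% of all promoters and 9.51% of all bodies did. Levels of the 2 groups did not separate in any part, where 1.06% of all promoters and 2.10% of all bodies were without overlap. With 7 promoters and 8 bodies, a count of 0 cannot be told apart from those shares. The body mean was lower in the arsenic group for 7 of the 8 genes, where 67.1% of all bodies were lower, and the median difference was -0.269 percentage points against -1.07 over all bodies. For Gsto1, Ahcy, Gnmt and Shmt1 it was -0.301 to -0.197 points and changed sign with the processing. Without arsenic pool 1, 5 of the 8 bodies were lower, where 55.6% of all bodies were, and 5 of the 8 were lower when levels were weighted by coverage. Of the 7 promoters, 2 were lower and 5 higher, with a median difference of 0.154 points against 0.0569 over all promoters.

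**Figure D1:**
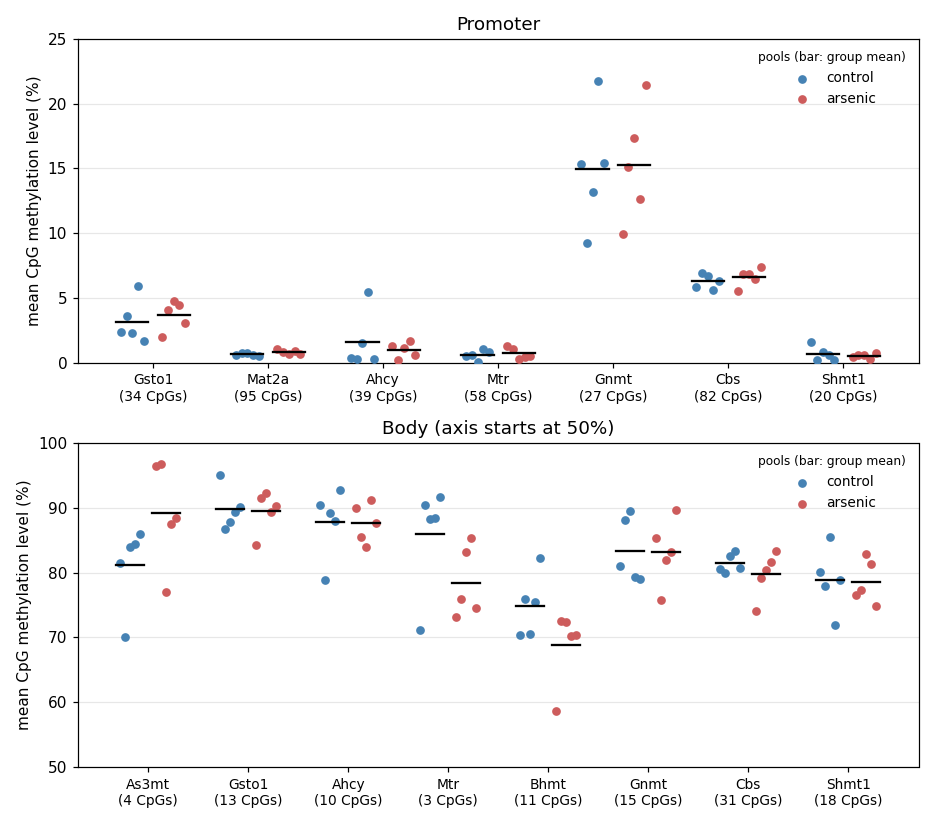
Mean CpG methylation level in percent (vertical axis) of the promoter (top) and body (bottom, axis from 50%) of each gene. Points are pools, 5 control and 5 arsenic, and bars are group means. The groups overlap for every gene part, and the widest gaps between means are in the bodies of As3mt, Mtr and Bhmt.

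As3mt (ENSMUSG00000003559), the arsenite methyltransferase, spans chr19:46707458-46741099 on the plus strand. Its 4 CpGs in the table lay in a short stretch of an intron, chr19:46725232-46725324, beginning 17774 bases from the start. The body level was 81.4, 70.1, 84.0, 84.5 and 86.0% in control pools 1 to 5, and 96.4, 96.8, 77.0, 87.5 and 88.4% in arsenic pools 1 to 5. In 4 of 5 arsenic pools the level was above all control pools, while arsenic pool 3 lay below 4 of them. The means were 81.2% ± 6.44 and 89.2% ± 8.08 (SD, n = 5), a difference of 8.04 points (exact permutation test, two-sided, p = 0.135; limma adjusted p = 0.521). All 4 CpGs had a higher mean in the arsenic group, from 0.417 to 17.7 points, at a coverage of 10 to 30 reads. Leaving out each pool in turn gave 5.26 points (without control pool 2, exact permutation test p = 0.238) to 11.1 points (without arsenic pool 3, p = 0.00794, with no overlap of the groups), and the limma adjusted p was 0.360 to 0.749.

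Gsto1 (ENSMUSG00000025068), an omega-class glutathione transferase, lies at chr19:47854970-47864790 on the plus strand, within the span of Cfap43 on the other strand. Its 34 promoter CpGs averaged 3.17% ± 1.70 in control and 3.66% ± 1.13 in arsenic pools (SD, n = 5; exact permutation test p = 0.611). The promoter was not uniform. Cytosines at positions -739 to -655 from the start had levels of 7.21 to 22% in control means and 10.2 to 19.9% in arsenic means, while those nearer the start were lower. The 13 body CpGs, all intronic, averaged 89.8% ± 3.26 and 89.5% ± 3.17 (p = 0.865 by the exact permutation test), higher than 94.5% of all bodies.

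Mat2a (ENSMUSG00000053907), the methionine adenosyltransferase of most tissues outside the liver, spans chr6:72432799-72439558 on the minus strand and had the most promoter CpGs of the 9 genes, 95. The promoter level was 0.617, 0.782, 0.743, 0.632 and 0.536% in control pools 1 to 5 and 1.03, 0.793, 0.655, 0.892 and 0.713% in the arsenic pools. The arsenic mean was higher in this unmethylated promoter, 0.816% ± 0.148 against 0.662% ± 0.0999 (SD, n = 5), but the pools of the groups overlapped (exact permutation test p = 0.0873; limma adjusted p = 0.895). The difference of 0.154 points became 0.101 without arsenic pool 1 (exact permutation test p = 0.175) and 0.0699 over CpGs with at least 20 reads (exact permutation test p = 0.746). It became larger, 0.198, with strands merged (exact permutation test p = 0.0397) and 0.194 without arsenic pool 3 (p = 0.0476). With at least 30 reads it was 0.260 (exact permutation test p = 0.325). The limma adjusted p of these 3 larger differences was 0.891 to 0.913. In all 10 pools 56 of the 95 CpGs were at 0. An intronic cytosine, chr6:72439009 on the minus strand, had a level of 0 in each control pool and of 6.06, 3.23, 10, 9.52 and 6.25% in arsenic pools 1 to 5, at 10 to 33 reads. It was named after its values were seen, and the limma adjusted p was 0.830. Since 0 of 30 reads allows a level of up to 11.4%, a single control pool reading 0 could have had a level of this size. That interval is for 1 pool and does not describe 5 control pools at 0 together. In the logistic regression on reads described below, q was 0.0573, above the threshold of 0.01.

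Ahcy (ENSMUSG00000027597), the hydrolase of S-adenosylhomocysteine, lies at chr2:155059310-155074497 on the minus strand. Its promoter was unmethylated in 9 pools, at 0.225 to 1.66%, while control pool 4 had 5.49%. The mean of 39 promoter CpGs was 1.58% ± 2.25 in control and 0.978% ± 0.561 in arsenic pools (SD, n = 5; exact permutation test p = 0.817), and without control pool 4 the arsenic mean was the higher by 0.381 points. The body had 10 CpGs, 4 of them between 2 and 1 kb upstream of the start, and averaged 87.8% ± 5.36 and 87.6% ± 3.00 (exact permutation test p = 0.952). Those 4 upstream cytosines were at 84.2% ± 7.47 and 86.6% ± 5.41, so that the change from methylated to unmethylated DNA fell between them and the promoter CpGs.

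Mtr (ENSMUSG00000021311), the cobalamin-dependent methionine synthase, spans chr13:12182712-12258113 on the minus strand. Its 58 promoter CpGs were unmethylated, at 0.607% ± 0.368 in control and 0.721% ± 0.432 in arsenic pools (SD, n = 5; exact permutation test p = 0.659). The body was represented by the 3 intronic cytosines shown above, 37340 to 37438 bases from the start. Their mean level was 71.2, 90.5, 88.3, 88.4 and 91.7% in control pools 1 to 5 and 73.2, 76.0, 83.2, 85.3 and 74.5% in arsenic pools 1 to 5. All 5 arsenic pools were below the control mean, and control pool 1 was the lowest of all 10. The means of 86.0% ± 8.42 and 78.4% ± 5.43 differed by -7.56 points (exact permutation test p = 0.111; limma adjusted p = 0.521). Leaving out each pool in turn gave -6.14 points (without control pool 5, exact permutation test p = 0.238) to -11.3 points (without control pool 1, p = 0.0159, with no overlap of the groups), and the limma adjusted p was 0.442 to 0.656.

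Bhmt (ENSMUSG00000074768), which remethylates homocysteine from betaine and is best known from liver and kidney, lies at chr13:93616675-93637961 on the minus strand. Its 11 body CpGs had the lowest mean of the 8 bodies, 71.9% over all pools. The level was 70.4, 75.9, 70.5, 75.5 and 82.3% in control pools 1 to 5 and 58.7, 72.6, 72.4, 70.3 and 70.4% in arsenic pools 1 to 5. Each arsenic pool was below the control mean, with arsenic pool 1 far below the rest, yet arsenic pools 2 and 3 were above control pools 1 and 3. The means were 74.9% ± 4.90 and 68.9% ± 5.79 (SD, n = 5), a difference of -6.06 points (exact permutation test p = 0.0873; limma adjusted p = 0.552). Lower means in the arsenic group were found at 10 of the 11 CpGs. In a coding exon, chr13:93617560-93617595, 3 cytosines averaged 68.6% ± 8.27 and 59.3% ± 10.5 (exact permutation test p = 0.151). Leaving out each pool in turn gave -3.52 points (without arsenic pool 1, exact permutation test p = 0.159) to -7.20 points (without control pool 1, p = 0.0794). The limma adjusted p was 0.472 to 0.747. Arsenic pool 1 was also the lowest over all CpGs. The body difference was -7.20 points over CpGs with at least 20 reads (exact permutation test p = 0.0556). With at least 30 reads it was -6.49 points (exact permutation test p = 0.0238, limma adjusted p = 0.523).

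Gnmt (ENSMUSG00000002769), the glycine methyltransferase that uses up excess S-adenosylmethionine and is also best known from liver, spans chr17:46725664-46729168 on the minus strand. It had the most methylated promoter of the 9 genes, at 14.99% ± 4.52 in control and 15.3% ± 4.40 in arsenic pools (SD, n = 5; exact permutation test p = 0.937), above 77.9% of all promoters. Levels climbed into the gene. Of its 27 promoter CpGs, a cytosine 102 bases from the start had the lowest level, 1.47% over all pools, one 382 bases away had the highest, 44.5%, and body CpGs from 1873 bases onwards averaged 83.4% ± 5.03 and 83.2% ± 5.09 (exact permutation test p = 0.968). Partial methylation, between 20 and 80% over all pools, was seen at 10 of the 42 CpGs of Gnmt.

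**Figure D2:**
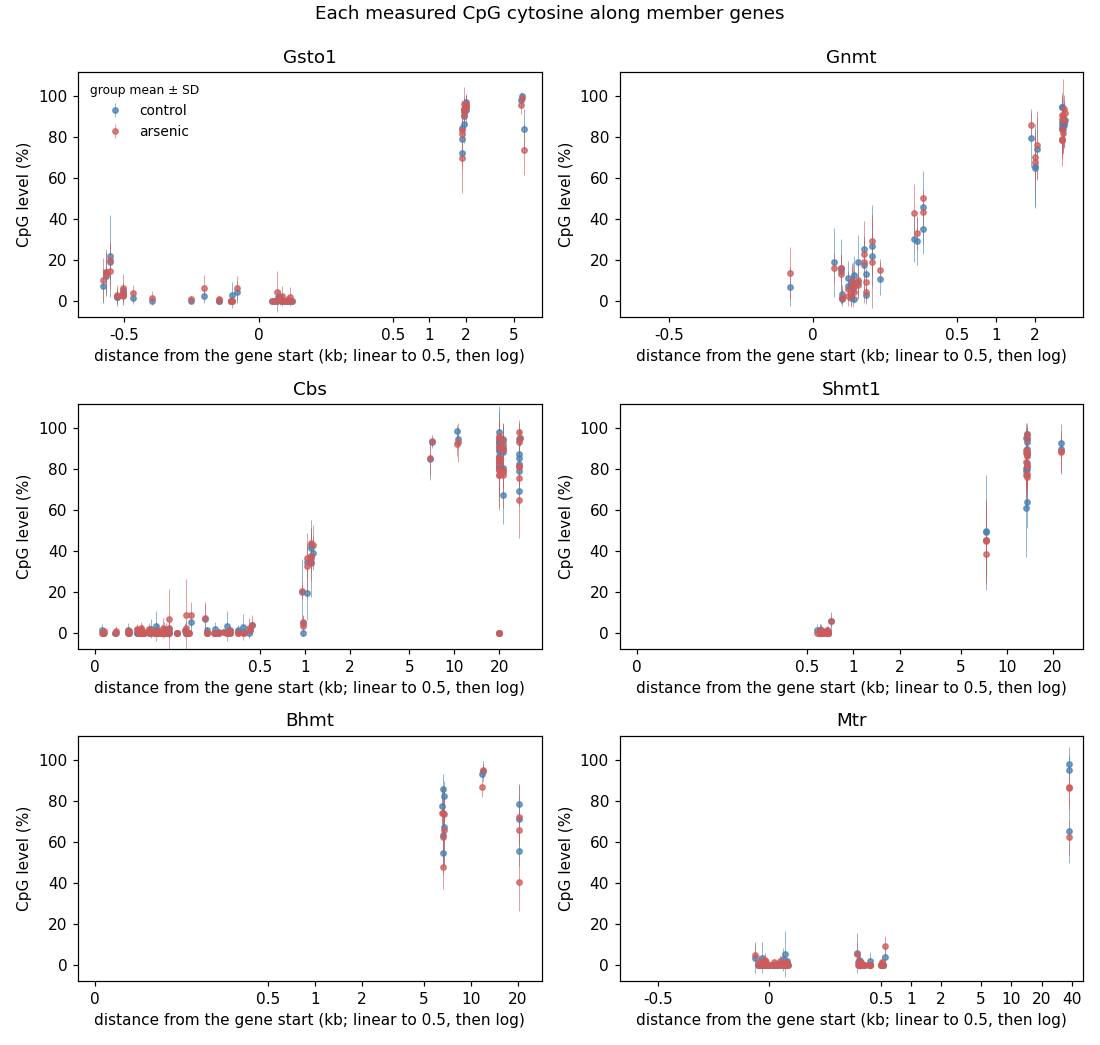
Level in percent (vertical axis) of each CpG cytosine against its distance from the gene start in kb (horizontal axis, linear to 0.5 kb and logarithmic beyond) in 6 genes. Points are group means with the SD over 5 pools. Low levels near the start give way to high levels in the bodies of Gsto1, Gnmt, Cbs, Shmt1 and Mtr, with intermediate levels in the Gnmt promoter, in Cbs about 1 kb from the start and in Shmt1 at 7289 to 7341 bases.

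Cbs (ENSMUSG00000024039), the first enzyme of transsulfuration, lies at chr17:31608894-31637238 on the minus strand and had 82 promoter and 31 body CpGs around 8 annotated starts. Its promoter averaged 6.28% ± 0.569 in control and 6.62% ± 0.695 in arsenic pools (SD, n = 5; exact permutation test p = 0.421), a mean made of unlike stretches. The 70 CpGs of the first 476 bases were at 0.676% ± 0.276 and 0.920% ± 0.353. The 10 cytosines of the intron shown above, 956 to 1125 bases from the start, were at 27.4% ± 3.39 and 29.3% ± 3.19, and 2 more at an internal start were at 96.8% ± 3.10 and 92.7% ± 4.61 (exact permutation tests p = 0.278, 0.365 and 0.119). In the body the means were 81.5% ± 1.48 and 79.7% ± 3.49 (exact permutation test p = 0.389), and the difference of -1.72 points shrank to -0.314 without arsenic pool 1. The coding exon shown above held a CpG, chr17:31617253-31617254, with 0 methylated reads on both strands in all 10 pools, at 11 to 57 reads on the minus and 58 to 96 on the plus strand. All other cytosines of that stretch had group means of 77.2 to 97.9%. A base of the C3H genome that differs from the C57BL/6J reference would also be read as unmethylated, and the 2 cannot be told apart in these counts. In the whole table, 1874 of the 133718 cytosines at 0 in all pools had a neighbour within 30 bases at 70% or more.

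Shmt1 (ENSMUSG00000020534), the cytosolic serine hydroxymethyltransferase, spans chr11:60788104-60811718 on the minus strand, its 3′ end overlapping Smcr8. The 20 promoter CpGs were at 0.689% ± 0.559 and 0.545% ± 0.192 (SD, n = 5; exact permutation test p = 0.698), and the 18 body CpGs at 78.8% ± 4.85 and 78.6% ± 3.39 (exact permutation test p = 0.929). The exon boundary shown above varied widely between pools. Its 3 cytosines averaged 62.3, 38.1, 69.9, 28.4 and 41.9% in control pools 1 to 5 and 54.1, 36.1, 42.9, 42.2 and 38.8% in the arsenic pools. Levels of 28.4 and 69.9% both came from control pools, and the group means of 48.1% ± 17.4 and 42.8% ± 6.88 differed by less than that spread (exact permutation test p = 0.540).

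Single CpGs were then compared. The thresholds of the study define a differentially methylated CpG (DMC) by a q-value of at most 0.01 and a pooled difference of at least 10 points in a logistic regression on reads. By this rule 2 of the 460 CpGs were lower in the arsenic group (hypoDMCs), 0.435%, where 1.48% of all CpGs were, and 0 were higher (hyperDMCs), where 0.784% of all CpGs were. The regression takes reads as independent and ignores the spread between pools. With that spread, limma called 0 of the 460, where 0% of all CpGs were called, and 21 of the 460, 4.57%, had an unadjusted p under 0.05, where 6.00% of all CpGs did. An F test with an overdispersion factor called 0, as for all CpGs, and had 13 of the 460 at an unadjusted p under 0.05, where 5.40% of all CpGs did. Of the 460 CpGs, 340 had a mean level under 20% over all pools, and 140 of these were at 0 in every pool. A CpG near 0 cannot fall by 10 points. The shares of all CpGs were not matched for level, so lower shares among the 460 cannot be read as stability of these genes.

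The hypoDMC of Mtr, chr13:12220675 on the plus strand, was the intronic cytosine farthest from the start. Its level was 100, 100, 89.2, 100 and 100% in control pools 1 to 5 and 72.2, 90.5, 82.9, 100 and 86.0% in arsenic pools 1 to 5, at 24 to 57 reads. Control pool 3 and arsenic pools 2 and 4 overlapped. The pooled difference was -11.5 points (q = 0.00288), and over pools the exact permutation test gave p = 0.0873 and limma an adjusted p = 0.830. Its neighbours in the same stretch were lower, by -8.13 and -3.02 points. Mtr had no hypoDMC without control pool 2 or control pool 5.

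The hypoDMC of Gnmt, chr17:46729012 on the minus strand, lay in the first coding exon, 156 bases from the start. Its level was 3.77, 9.09, 18.2, 35 and 28.8% in control pools 1 to 5 and 8.33, 17.9, 4.23, 0 and 8.57% in arsenic pools 1 to 5. Control pools 4 and 5 were the high ones, and control pool 1 was below 4 of the 5 arsenic pools. The pooled difference was -11.6 points (q = 0.00368; exact permutation test over pools p = 0.119; limma adjusted p = 0.830). On the plus strand, the cytosine of the same CpG was at 9.07% ± 5.75 in control and 10.05% ± 9.28 in arsenic pools (SD, n = 5). Gnmt had no hypoDMC without control pool 5, arsenic pool 3 or arsenic pool 4.

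Another Gnmt cytosine of this exon, chr17:46728984 on the minus strand, was without overlap between the groups, with 15.1, 12.1, 14, 10 and 15.5% in the control pools and 0, 3.57, 5.71, 3.39 and 8.57% in the arsenic pools. It was named after its values were seen, as was the Mat2a cytosine above. They were the only CpGs of the 460 whose groups did not overlap, 1 lower and 1 higher in the arsenic group, where 0.474% of all CpGs were lower and 0.219% higher without overlap. The pooled difference was -9.23 points (q = 0.00592; limma adjusted p = 0.830). Its partner on the plus strand went the other way, from 2.80% ± 4.38 to 9.37% ± 6.27.

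The strands of the Gnmt exon were set side by side. Of 10 CpGs read on both strands, 8 had a lower arsenic mean on the minus strand and 3 on the plus strand. The minus strand averaged 13.7% ± 5.93 in control and 10.2% ± 4.32 in arsenic pools, and the plus strand 9.11% ± 6.17 and 9.66% ± 6.79 (SD, n = 5; exact permutation tests p = 0.333 and 0.897). Per pool, the minus strand less the plus strand ranged from -6.58 to 17.3 points in the control pools and from -5.70 to 9.81 in the arsenic pools (exact permutation test p = 0.492). Coverage was 31 to 71 reads on the minus and 16 to 54 on the plus strand. Over the 161 CpGs of the 9 genes read on both strands, the median gap between strands was 0.714 points and the largest 13.3 points.

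**Figure D3:**
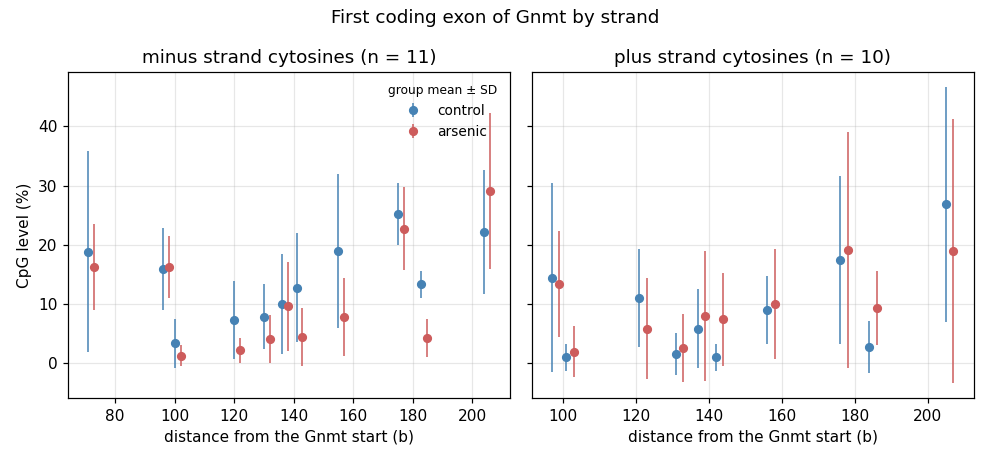
Level in percent (vertical axis) of each cytosine in the first coding exon of Gnmt against its distance from the start in bases (horizontal axis), on the minus strand (left, 11 cytosines) and the plus strand (right, 10). Points are group means with the SD over 5 pools, the groups set 1 base to either side. Most arsenic means lie below the control means on the minus strand, and 3 of 10 do on the plus strand.

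Other genes of the same pathways were read from 3 lists, 62 genes in all, of which 50 had promoter CpGs and 56 body CpGs. By limma 0 of 50 promoters and 0 of 56 bodies were called, and 3 of 50 promoters and 4 of 56 bodies had an unadjusted p under 0.05, where 6.02% of all promoters and 9.51% of all bodies did. No promoter or body was without overlap between the groups, where 1.06% of all promoters and 2.10% of all bodies were. With 50 promoters and 56 bodies, a count of 0 cannot be told apart from those shares. The arsenic mean was lower in 38 of 56 bodies, with a median difference of -1.11 points against -1.07 over all bodies, and in 23 of 50 promoters, with a median of 0.0575 points. Arsenic pool 1 had the lowest mean body level of the 10 pools in each list, at 62.6, 67.6 and 70.3%. Without it, an alternative added after seeing the data, 31 of 56 bodies were lower with a median of -0.194 points, against 55.6% and -0.331 points over all bodies.

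In the arsenic and glutathione handling list, 11 of 16 bodies and 8 of 16 promoters were lower (medians -0.897 and 0.0299 points). In the list of the methionine cycle, transsulfuration and methyl acceptors, it was 13 of 18 bodies and 5 of 13 promoters (medians -1.21 and 0.227 points). In the folate cycle list, it was 14 of 22 bodies and 10 of 21 promoters (medians -1.04 and 0.0487 points), while the mean over its bodies was 72.8% in control and 72.9% in arsenic pools. Without arsenic pool 1 the lower bodies were 8 of 16, 11 of 18 and 12 of 22. Levels under 5% were measured for 10 of 16, 12 of 13 and 12 of 21 promoters in the same order.

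The 7 parts with an unadjusted p under 0.05 were named after their values were seen, and their shares were no larger than those of all parts. The promoter of Pipox, a sarcosine and pipecolate oxidase, was at 44.0% ± 7.84 in control and 31.7% ± 6.12 in arsenic pools (SD, n = 5). That of Slc7a11, the cystine transporter, was at 3.65% ± 1.26 and 6.50% ± 2.61, and that of Slc46a1, the proton-coupled folate transporter, at 0 in all control pools and 1.04% ± 1.09 in arsenic pools. Over the 7 CpGs of the Slc46a1 promoter, arsenic pools 2 and 4 were also at 0 (exact permutation test p = 0.167). These 3 promoters had a limma adjusted p = 0.822. Among bodies, glutathione synthetase Gss was at 91.2% ± 3.07 and 86.2% ± 3.91, spermine synthase Sms at 77.0% ± 2.19 and 72.5% ± 3.46, and the reduced folate carrier Slc19a1 at 78.6% ± 2.59 and 73.4% ± 3.98. Ftcd, of histidine and folate metabolism, went the other way, with 61.7% ± 2.56 and 67.5% ± 4.93. The limma adjusted p of these 4 bodies was 0.511 to 0.521.

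**Figure D4:**
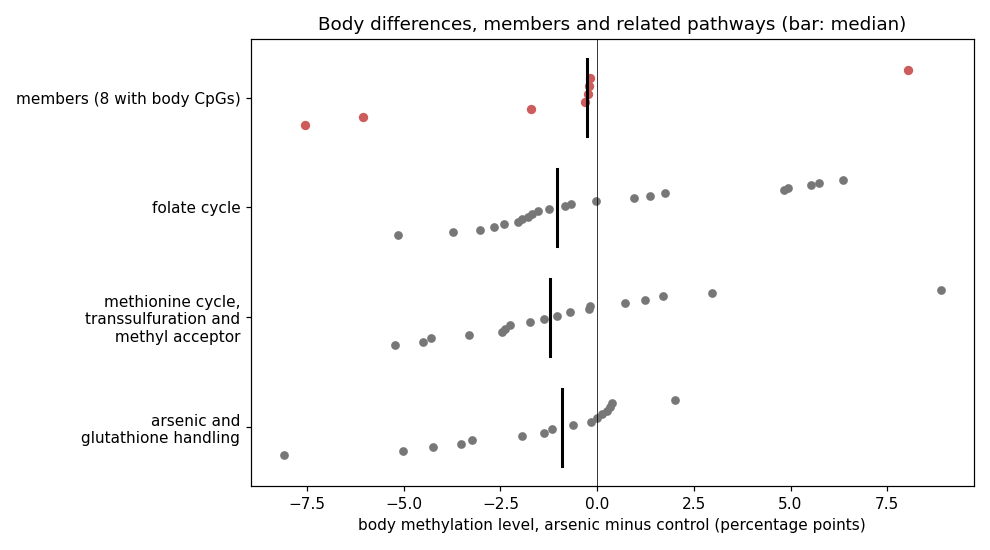
Difference in mean body methylation level, arsenic minus control, in percentage points (horizontal axis) for the 8 genes with body CpGs (top row) and for 3 lists of related pathway genes. Each point is a gene and each bar a median. The medians lie between -1.21 and -0.269 points, and the genes spread to both sides of 0.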

How the data were processed

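RRBS was performed on the Thy1-selected fraction, labelled prospermatogonia, of 5 control and 5 arsenic pools. According to the submitters' processing notes, Trim Galore 0.6.5, Bismark 0.22.3 and methylKit 1.22.0 were used with the mm10 genome. The authors deposited 1 table of raw counts, with coverage, methylated and unmethylated reads at each CpG cytosine and strand, the lowest coverage in any sample being 10. How duplicate reads were treated is not given in the sources used here, so that tests on single reads may overstate the evidence.

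The level was methylated reads divided by coverage, averaged without weights over the CpGs of a gene part. Levels were compared by limma 3.58.1 (R 4.3.3) on log2((level + 1)/(100 - level + 1)), fitted over all 14214 promoters or 15050 bodies with Benjamini-Hochberg adjustment, and by two-sided exact permutation tests, whose smallest p is 0.00794 with 5 pools a group. Single CpGs were tested over all 1348062 by logistic regression and by limma on log2((methylated + 1)/(unmethylated + 1)). The thresholds were an adjusted p of 0.05 and, for DMCs, a q-value of 0.01 with 10 points. Python 3.11.15, numpy 2.4.6, scipy 1.17.1 and pandas 2.3.3 were used, and the tests were tested on simulated data. Coordinates and sequences are of GRCm38, with genes from GENCODE M21.

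Samples were grouped by their titles. Same-numbered pools did not deviate together (r of -0.0133 to 0.0334 over 517322 CpGs), so the main fits had no block. Samples were not copies of each other, since any pair shared the same counts at 1.69% of CpGs or fewer. The alternatives were other coverage minimums, weights, strands merged, promoter widths, scales, the block, and leaving out each pool. All 9 genes were to be named, single CpGs if they were DMCs, and pathway genes if their groups did not overlap. The genes, lists and tests were chosen with earlier results of these data known.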

Additional observations from a re-analysis of the deposited data

Results flagged for a closer look

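In 4 of the 30 groups of 5 pools, 1 per gene part and group, a single pool lay far from the other 4, where chance gives about 1.5 such groups. In the As3mt body, control pool 2 had a level of 70.1% and the other control pools 81.4 to 86.0%. In the Ahcy promoter, control pool 4 had 5.49% and the others 0.256 to 1.49%. For the Mtr body, control pool 1 was at 71.2% and the others at 88.3 to 91.7%. In the Bhmt body, arsenic pool 1 was at 58.7% and the other arsenic pools at 70.3 to 72.6%.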

How the results depend on the processing

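Limma called 0 promoters, 0 bodies and 0 single CpGs of the 9 genes under every alternative run. The count of bodies at an unadjusted p under 0.05, 0 in the main fit, was less stable. It was 2 when levels were weighted by coverage. It was 1 with at least 20 reads, with at least 30 reads, with the block, and without control pool 1, arsenic pool 3 or arsenic pool 4. In the main fit 9.51% of all bodies were under that p. That share can differ under each alternative, so the counts of 1 and 2 are not set against it. Of 131 promoter and 149 body differences recomputed, 14 and 25 changed sign, none of them called. The As3mt, Mtr, Bhmt and Cbs body and Mat2a promoter differences did not change sign, but their size moved. That of the Cbs body was -0.314 points without arsenic pool 1, -0.612 with strands merged and -2.93 with at least 30 reads, and that of the Mat2a promoter 0.0699 to 0.317. For Mtr the body difference was -0.796 points where the promoter ended 100 b after the start, since CpGs of the unmethylated first intron then counted as body.

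With at least 20 reads, the difference was -0.165 for the Gsto1 promoter, -0.0699 for the Mtr promoter, -3.53 for the Gnmt promoter, 0.544 for the Gsto1 body and 2.39 for the Ahcy body. With at least 30 reads it was -3.53, 0.544 and 2.06 for the last 3. The Ahcy body value with at least 20 reads was that of its 4 upstream cytosines alone (exact permutation test p = 0.619). The Gnmt promoter value under both minimums was that of the 10 minus-strand cytosines of the first coding exon compared above (exact permutation test p = 0.333). These values therefore describe a part of the stretch and not the same CpGs measured again. Weighted by coverage, it was -1.54 for the Gnmt and -0.652 for the Cbs promoter, and 0.986 for the Gsto1 and 0.607 for the Ahcy body. With strands merged it was 0.627 for the Ahcy and 0.0679 for the Gnmt body, and with the narrower promoter 0.0426 for the Gnmt body.

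Leaving out each pool gave differences of -0.929 to 0.381 (Ahcy), -0.0256 to 0.226 (Mtr), -1.24 to 1.97 (Gnmt) and -0.268 to 0.0758 (Shmt1) for promoters, and -1.08 to 1.02 (Gsto1), -2.46 to 1.04 (Ahcy), -1.83 to 1.65 (Gnmt) and -1.97 to 1.42 (Shmt1) for bodies. HypoDMCs ranged from 1 (0.217% of the 460 CpGs where 1.43% of all CpGs were called, without control pool 5, in Cbs) to 6 (1.30% where 1.39% were, without arsenic pool 5, in Mtr, Gnmt and Cbs). HyperDMCs ranged from 0 to 2 (0.435% where 0.911% were, without arsenic pool 2, in Gnmt and Shmt1). There was 1 hyperDMC without control pool 4, where 0.782% of all CpGs were called, and 1 without arsenic pool 3. With at least 20 points there were 0 hypoDMCs, where 0.428% of all CpGs were, and 0 with the overdispersion factor, where 0% of all CpGs were. The cause of these changes was not tested. With the replicate number as a block, there were 2 hypoDMCs and 0 hyperDMCs, and limma called 0 gene parts and 0 CpGs. The block changed no call. Without arsenic pool 1, an alternative chosen after seeing the data, 0 of 7 promoters and 0 of 8 bodies were without overlap. With all pools, 1.06% of all promoters and 2.10% of all bodies were without overlap, and these shares can differ without that pool. With so few parts, a count of 0 cannot be told apart from shares of that size. Low coverage limits As3mt most, at a median of 18.5 reads.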
